A study of Mus musculus with 2 samples.

Results

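Lhx2, Hand2, Tcf21, Foxf1, Prrx1, Wt1, Gata6, Gata4 and Nr2f2 are transcription factor genes known for their part in forming and keeping the mesenchyme of internal organs, the loose tissue from which fibroblasts, pericytes and smooth muscle arise. These 9 genes were taken by name as a set and found by Ensembl identifier among the 30406 genes that both count tables of a liver single-cell study share. In the liver, the mesenchyme includes the stellate cells, which store retinoids around the sinusoids and turn into matrix-producing cells after injury, the fibroblasts of the portal tract and capsule, and the mesothelium that covers the organ. Hand2 and Tcf21 are basic helix-loop-helix factors, which bind DNA as dimers at short sites called E-boxes. Gata4 and Gata6 are zinc finger factors that bind GATA sites, and Lhx2 and Prrx1 are homeodomain factors.

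The study profiled liver cells with droplet RNA sequencing (10x Genomics) in 1 library from healthy and 1 library from CCl4-injured mice, carbon tetrachloride being a hepatotoxin that causes chronic injury and fibrosis when given repeatedly. All mice of both groups were Col1a2CreER:Rosa26tdTomato animals, in which a tamoxifen-dependent Cre under a Col1a2 collagen promoter can switch on a red reporter in cells that use this promoter. The study's methods describe young adult mice of both sexes for its lineage-tracing lines and, for the injured animals, repeated intraperitoneal CCl4 in corn oil over several weeks. How many animals went into each library is not given in the sources used here. Livers were perfused with pronase and collagenase, the cells were purified on a Nycodenz gradient, and the study's methods add a depletion of CD45-positive cells. With 1 library per group no test across animals is possible, so every interval below is a 95% interval for counting error only, and library, Cell Ranger version (3.1.0 for healthy, 6.0.1 for CCl4) and injury cannot be told apart.

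The filters kept 5602 cells of the healthy and 7314 of the CCl4 library, whose medians were 6783.5 and 11876 UMIs per cell (unique molecular identifiers, each standing for 1 captured transcript). The libraries shared 10 cell barcodes before filtering and 8 after it. Cells were clustered without the 9 genes and without any other listed transcription factor, and 23 of 34 clusters could be named from cell type markers. The stellate-like class held 1410 CCl4 cells (median 12368 UMIs) but only 6 healthy cells, so stellate-like cells were described in the CCl4 library alone. The mesothelial-like class held 231 healthy and 879 CCl4 cells and the endothelial-like class 3541 and 553. These classes were named from the marker lists, so counts of the same markers describe them and are no separate check of identity. In stellate-like cells 16 of 18 stellate markers were found in at least 10% of cells. In healthy mesothelial-like and endothelial-like cells 15 of 15 mesothelial and 20 of 22 endothelial markers were.

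The portal-type label was weaker. The only cluster that the marker counts named portal fibroblast-like held 563 CCl4 cells (median 21149 UMIs) and no healthy cell, and 8 of 16 portal fibroblast markers reached 10% of its cells. Among the markers usually taken to define such cells, Gli1 was found in 0.0126% of the cells at fixed depth, Thy1 in 1.93%, Mfap4 in 1.83%, Dpt in 7.53% and Entpd2 in 8.37%. Other listed markers went the other way. Cd34, Clec3b, Fbln1, Fbln2, Igfbp6, Mgp and Slit2 were at least 2-fold above all other cells and in at least 10% of the cluster's cells without thinning. Of 15 mesothelial markers 7 reached 10% of the cells, with a summed level of 4256 CPM (the UMIs of a gene scaled to a common total per class) against 17643 CPM in CCl4 mesothelial-like cells, and the mesothelial antigen Msln was found in 5.05%. Conversely, 7 of the 16 portal fibroblast markers reached 10% of CCl4 mesothelial-like cells and 8 reached 10% of healthy ones. Their summed level was 3436 CPM in the cluster, 2809 CPM in CCl4 and 10370 CPM in healthy mesothelial-like cells. The cluster is therefore called by its leading genes, Enpp2 and Serpinb2, in what follows. Its median UMI count was 1.78 times that of its library, and the part of doublets in its profile was not tested.

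The reference promoters of the factors are shown first for the pair that was frequent throughout the stellate-like cells, Hand2 and Tcf21, and for Prrx1, which was found in fibroblast clusters and hardly in mesothelium. RefSeq sequences (GRCm38.p6) were matched for 5 of the 9 genes, Lhx2, Hand2, Tcf21, Prrx1 and Nr2f2, and each stretch below is the 250 bases before the transcription start, 5′ to 3′ on the strand of the gene. Hand2 lies on the plus strand (chr8:57320733-57320982), Tcf21 on the minus strand (chr10:22820144-22820393) and Prrx1 on the minus strand (chr1:163313651-163313900). Capitals mark E-boxes (CANNTG), GATA sites (GATAA, read on either strand) and a homeodomain core (TAATTA), which overlaps a GATA site once in Hand2 and once in Prrx1.
Hand2: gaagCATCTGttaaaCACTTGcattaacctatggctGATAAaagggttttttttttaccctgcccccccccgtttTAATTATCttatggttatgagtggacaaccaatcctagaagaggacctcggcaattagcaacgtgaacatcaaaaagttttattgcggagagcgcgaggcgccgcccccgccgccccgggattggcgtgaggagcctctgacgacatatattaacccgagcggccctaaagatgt
Tcf21: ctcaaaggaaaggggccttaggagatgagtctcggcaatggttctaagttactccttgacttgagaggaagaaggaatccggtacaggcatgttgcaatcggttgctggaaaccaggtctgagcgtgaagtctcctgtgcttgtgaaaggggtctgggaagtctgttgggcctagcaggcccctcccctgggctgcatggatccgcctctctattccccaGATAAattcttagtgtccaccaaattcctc
Prrx1: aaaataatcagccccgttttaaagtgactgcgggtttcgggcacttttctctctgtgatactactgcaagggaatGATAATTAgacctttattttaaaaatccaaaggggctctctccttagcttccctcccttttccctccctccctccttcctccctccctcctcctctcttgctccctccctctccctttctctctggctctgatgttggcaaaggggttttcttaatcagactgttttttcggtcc
The Hand2 stretch held 2 E-boxes, 2 GATA sites and 1 homeodomain core, the Tcf21 stretch 1 GATA site and the Prrx1 stretch 1 GATA site and 1 homeodomain core. Of the matched genes not printed, Nr2f2 held 1 E-box and neither other motif, and Lhx2, with 2 annotated starts, held 0 matches in both stretches. Over all 32851 promoter stretches of this length, 66.2% held an E-box, 22.6% a GATA site and 4.84% a homeodomain core. These are matches of letters and no measurement of binding.

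A first look at all classes showed 3 patterns: a stellate group of factors, a group shared by mesothelium and the Enpp2/Serpinb2 cluster, and a group that was most frequent in endothelium. To compare cells of unequal depth, each cell was thinned to 2000 UMIs, cells with fewer were left out, and the share of cells keeping at least 1 UMI of the gene was computed ("share at fixed depth"). The thinning left out 141 stellate-like, 7 Enpp2/Serpinb2, 3 healthy mesothelial-like, 571 healthy and 18 CCl4 endothelial-like cells and no CCl4 mesothelial-like cell. Free RNA in the droplets can give UMIs in cells that do not express a gene. Immune-like cells of the CCl4 library (377 cells, median 3780 UMIs, 94 left out) were used as the background level of that library. How much of this level came from free RNA or from doublets was not tested. Immune-like cells were shallower than the classes compared with them, and whether their level fits deeper cells was not tested.

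**Figure D1:**
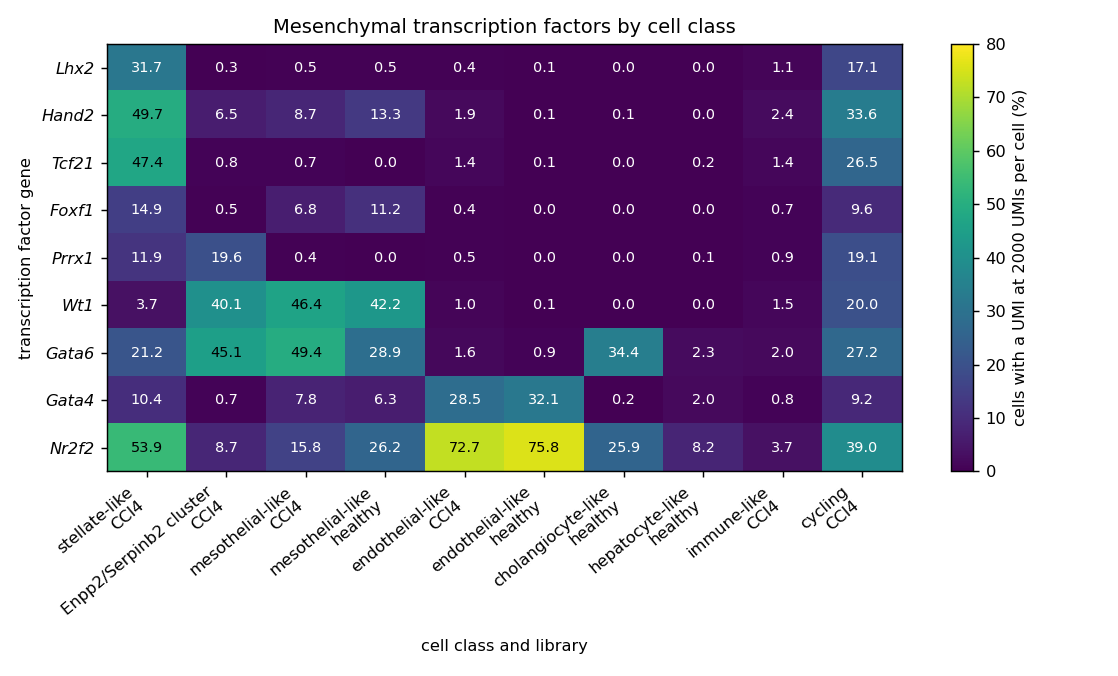
Share of cells (%) with at least 1 UMI of each of the 9 genes (rows) after thinning to 2000 UMIs per cell, in classes of at least 50 cells (columns, with the library). Lhx2, Hand2 and Tcf21 were highest in stellate-like cells (31.7%, 49.7% and 47.4%), Wt1 in mesothelial-like cells (46.4% in CCl4) and Nr2f2 in endothelial-like cells (75.8% in healthy).

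Lhx2, a LIM-homeodomain factor known to restrain stellate cell activation, was found in 31.7% of CCl4 stellate-like cells at fixed depth (interval 29.1 to 34.3%, 72.9% without thinning). In the Enpp2/Serpinb2 cluster the share was 0.268%, in CCl4 mesothelial-like cells 0.501%, in CCl4 endothelial-like cells 0.418% and in healthy endothelial-like cells 0.0525%. The immune-like background was 1.05% (0.215 to 3.05%), so Lhx2 was at background in these 3 CCl4 classes. Cycling cells of the CCl4 library, which were not assigned to a cell type, had it in 17.1% (12.9 to 22.0%). The 3 unnamed clusters described further on were above background as well. So was a shallow unnamed cluster of 557 CCl4 cells (median 1030 UMIs), at 18.5% (12.6 to 25.8%) with 411 cells left out. No UMI of Lhx2 was counted in the 1277 healthy cholangiocyte-like cells, which allows a share at fixed depth of up to 0.290%. As summed levels, Lhx2 stood at 212 CPM in stellate-like cells and 1.38 CPM in the Enpp2/Serpinb2 cluster, a ratio of 154 (96.2 to 265) that rests on 17 UMIs in the latter. This ratio was 42.6 with doublets kept and 8.57 with each library clustered on its own, so its size depended on which cells were assigned to the cluster.

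Tcf21, a factor of the mesenchyme around developing organs and of the epicardium, was found in 47.4% of stellate-like cells at fixed depth (44.6 to 50.2%, 79.4% without thinning). It was in 0.832% of the Enpp2/Serpinb2 cells, 0.717% of CCl4 mesothelial-like cells and 1.40% of CCl4 endothelial-like cells, all within the interval of the immune-like background of 1.44% (0.399 to 3.61%). In healthy mesothelial-like cells 1 UMI was counted in all 231 cells. Cycling CCl4 cells had Tcf21 in 26.5% (21.5 to 32.1%), above that background, as were the same 3 unnamed clusters. Tcf21 stood at 383 CPM in stellate-like cells against 3.89 CPM in the Enpp2/Serpinb2 cluster (ratio 98.6, 74.25 to 134).

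Hand2, known from heart, limb and neural crest development, was as frequent as Tcf21 in stellate-like cells at 49.7% (46.9 to 52.5%, 84.0% without thinning), but was not limited to them. Mesothelial-like cells had it in 13.3% (9.17 to 18.4%) in the healthy and 8.72% (6.94 to 10.8%) in the CCl4 library, and the Enpp2/Serpinb2 cells in 6.54% (4.63 to 8.93%), against 2.42% (0.966 to 4.96%) in immune-like cells, whose interval the last just overlapped. The shares of the Enpp2/Serpinb2 and the CCl4 mesothelial-like cells overlapped in their intervals. In healthy liver 5 UMIs of Hand2 were counted in all 1277 cholangiocyte-like cells, so the healthy mesothelial share lay well above the background of its own library. Stellate-like cells held 382 CPM of Hand2, 10.8 times (9.82 to 12.0) the Enpp2/Serpinb2 level and 7.67 times (7.13 to 8.27) the CCl4 mesothelial level, the former ratio being 3.58 with each library clustered on its own.

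Foxf1, a forkhead factor downstream of Hedgehog signals in gut and lung mesenchyme, had the same order at lower shares. Stellate-like cells had it in 14.9% (13.0 to 17.0%, 52.6% without thinning), in 11.2% of healthy and 6.77% of CCl4 mesothelial-like cells and in 0.492% of Enpp2/Serpinb2 cells, the last below the immune-like share of 0.675%. The stellate-like and healthy mesothelial-like intervals overlapped (7.41 to 16.02% in the latter). The mesothelium thus held Hand2 and Foxf1, while its Lhx2 and Tcf21 shares did not exceed those of immune-like cells.

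Wt1 is the zinc finger factor of the Wilms tumour locus and a textbook marker of mesothelium. Its share was lower in stellate-like than in mesothelial-like and Enpp2/Serpinb2 cells. Wt1 was in 46.4% (43.0 to 49.7%) of CCl4 and 42.2% (35.7 to 48.9%) of healthy mesothelial-like cells, in 40.1% (36.0 to 44.3%) of Enpp2/Serpinb2 cells and in 3.72% (2.75 to 4.92%) of stellate-like cells at fixed depth. Without thinning, 95.9%, 90.0%, 93.3% and 11.6% of these cells had a UMI. The intervals of the 3 high shares overlapped one another, and the stellate-like interval overlapped that of immune-like cells (1.47%, 0.414 to 3.65%). Wt1 stood at 322 CPM in CCl4 mesothelial-like, 267 CPM in Enpp2/Serpinb2 and 14.5 CPM in stellate-like cells. Its stellate-like over Enpp2/Serpinb2 ratio of 0.0543 lay between 0.0356 and 0.0837 under other clustering settings and cell weights.

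Gata6 joined Wt1 in these classes but was far less exclusive. It was found in 49.4% (46.0 to 52.7%) of CCl4 mesothelial-like cells, 45.1% (40.9 to 49.3%) of Enpp2/Serpinb2 cells, 34.4% (31.8 to 37.1%) of healthy cholangiocyte-like cells, 28.9% (23.1 to 35.3%) of healthy mesothelial-like cells and 21.2% (19.03 to 23.6%) of stellate-like cells at fixed depth. The mesothelial-like and Enpp2/Serpinb2 shares of the CCl4 library overlapped in their intervals, and so did those of healthy cholangiocyte-like and mesothelial-like cells. Endothelial-like cells had it in 0.913% in healthy and 1.65% in CCl4, the latter below the immune-like 2.03%.

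Prrx1, a paired-related homeodomain factor of limb and skull mesenchyme and of many fibroblasts, separated the Enpp2/Serpinb2 cells from the mesothelium. Prrx1 was in 19.6% (16.4 to 23.1%, 74.6% without thinning) of the former and in 11.9% (10.2 to 13.8%, 39.1% without thinning) of stellate-like cells. CCl4 mesothelial-like cells had it in 0.429%, below the immune-like 0.888%. In the healthy library 0 of 231 mesothelial-like cells had a UMI, which allows a share at fixed depth of up to 1.60%. The Enpp2/Serpinb2 level of 121 CPM was 44.2 times (32.7 to 61.0) the mesothelial level of 2.73 CPM, which is at the background.

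Gata4, known as a regulator of the sinusoidal endothelial program and of stellate cells, was most frequent in endothelium, at 32.1% (30.4 to 33.8%) in healthy and 28.5% (24.7 to 32.5%) in CCl4 endothelial-like cells at fixed depth. Gata4 was in 10.4% (8.73 to 12.2%) of stellate-like, 7.81% (6.13 to 9.79%) of CCl4 and 6.28% (3.50 to 10.3%) of healthy mesothelial-like cells, 3 shares with overlapping intervals. In the Enpp2/Serpinb2 cells the share was 0.714%, beside 0.759% in immune-like cells, so these cells held Gata6 without Gata4 above background. Healthy cholangiocyte-like cells likewise combined a Gata6 share of 34.4% with a Gata4 share of 0.206%, and endothelial-like cells had the reverse.

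Nr2f2 (COUP-TFII), an orphan nuclear receptor that specifies venous endothelium, was the most widespread of the genes. It was found in 75.8% (74.2 to 77.3%) of healthy and 72.7% (68.7 to 76.5%) of CCl4 endothelial-like cells, and in 53.9% (51.1 to 56.7%) of stellate-like cells. Mesothelial-like cells had it in 26.2% (20.6 to 32.4%) in healthy and 15.8% (13.5 to 18.4%) in CCl4, healthy cholangiocyte-like cells in 25.9% and the Enpp2/Serpinb2 cells in 8.68% (6.48 to 11.3%). The interval of the immune-like share of 3.75% (1.86 to 6.67%) overlapped only that of the Enpp2/Serpinb2 cells.

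**Figure D2:**
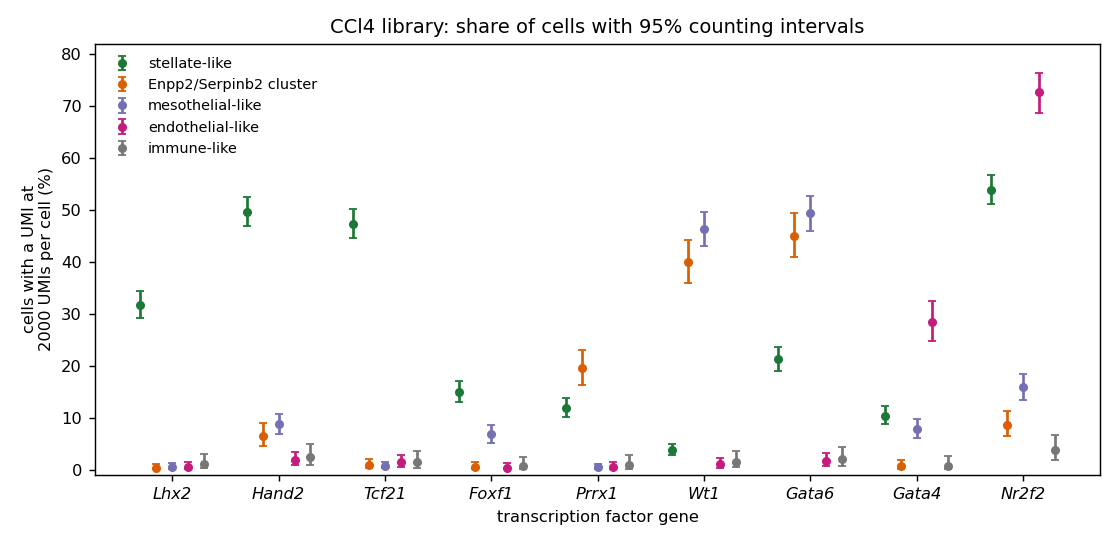
Share of CCl4 cells (%) with at least 1 UMI after thinning to 2000 UMIs, per gene (x axis) and class (colours), with exact binomial 95% intervals that cover counting error only. Stellate-like cells (green) stand above the others for Lhx2, Hand2, Tcf21 and Foxf1, while for Wt1 and Gata6 the Enpp2/Serpinb2 cluster (orange) and mesothelial-like cells (purple) lie together at 40.1% to 49.4%.

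Counted over the set, 8 of the 9 genes differed by over 2-fold in CPM between stellate-like and Enpp2/Serpinb2 cells, 6 higher and 2 lower (Gata6, ratio 0.357, and Wt1, ratio 0.0543), where 30.5% of the 12386 genes with at least 30 UMIs did so. Prrx1 had a ratio of 0.571. Between stellate-like and CCl4 mesothelial-like cells 8 of 9 did so (background 30.9%), again with 6 higher, Gata4 being within 2-fold. Between Enpp2/Serpinb2 and mesothelial-like cells the count was 5 of 9 (background 21.7%), with Prrx1 higher and Lhx2, Nr2f2, Foxf1 and Gata4 lower, the last at a ratio of 0.0899 (0.0652 to 0.121), and Gata6 (0.911) and Wt1 (0.829) within 2-fold. Against CCl4 endothelial-like cells, stellate-like cells differed in 8 of 9 (background 38.5%), with 7 higher and Gata4 lower at 0.340, and Enpp2/Serpinb2 cells in 6 of 8 with enough UMIs (background 46.2%). Several of these counts rest on genes that were at background in 1 of the classes. The 9 genes, like the lists used further on, were chosen with earlier results of these data known. Their counts beside all genes are therefore descriptions and no test of enrichment.

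Within the mesenchymal cells of the CCl4 library the factors did not vary together. The 2 large stellate-like clusters were A (393 cells, led by Angptl6 and Ntm) and B (569 cells, led by Bco1 and P2ry14). Beside them, 3 of the 9 unnamed clusters are described here. An Acta2/Tagln cluster (552 cells) had 13 of 18 stellate markers but smooth muscle genes among its leading genes, and a Clic5 cluster (476 cells) and a Thbs4 cluster (900 cells) mixed marker classes. From stellate A through stellate B, Acta2/Tagln and Clic5 to Thbs4, the share at fixed depth of the stellate gene Lrat, which makes retinyl esters, went from 71.0% to 56.8%, 43.9%, 27.5% and 12.0%. Over the same clusters Dpt, a matrix protein gene, went from 14.1% to 33.6%, 51.8%, 71.1% and 77.7%. All 5 clusters had similar median depths, between 13482 and 15540 UMIs. A further unnamed cluster of mixed smooth muscle and stellate markers (557 cells, median 1030 UMIs) was left out of this order.

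Along this order of clusters Tcf21 was found in 53.9%, 52.3%, 50.6%, 52.4% and 52.7% of cells, and Hand2 in 52.2%, 52.1%, 50.3%, 51.5% and 49.1%. Neither differed between any of the 5 clusters beyond the counting intervals. Lhx2 went from 37.6% (32.8 to 42.7%) in stellate A to 32.3%, 26.2%, 22.1% and 15.4% (13.1 to 17.9%) in the Thbs4 cluster, following Lrat. Wt1 went the other way, from 0.666% in stellate A to 3.26%, 7.21%, 23.05% and 31.04% (28.02 to 34.2%), and Prrx1 from 9.09% to 14.2%, 19.6%, 29.2% and 28.8%. The Wt1 share of the Thbs4 cluster was above the immune-like 1.47% and came with Msln in 0.516% of cells, so the mesothelial antigen was near 0 there. Gata6 was at 20.1%, 20.5% and 21.5% in the first 3 clusters and at 28.9% and 32.1% in the last 2. Nr2f2 stayed between 50.9% and 54.3%, Gata4 between 9.65% and 13.7% and Foxf1 between 10.95% and 18.2%. Clusters were ordered by Lrat share after the values were seen, and their order is a description, not a time course.

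**Figure D3:**
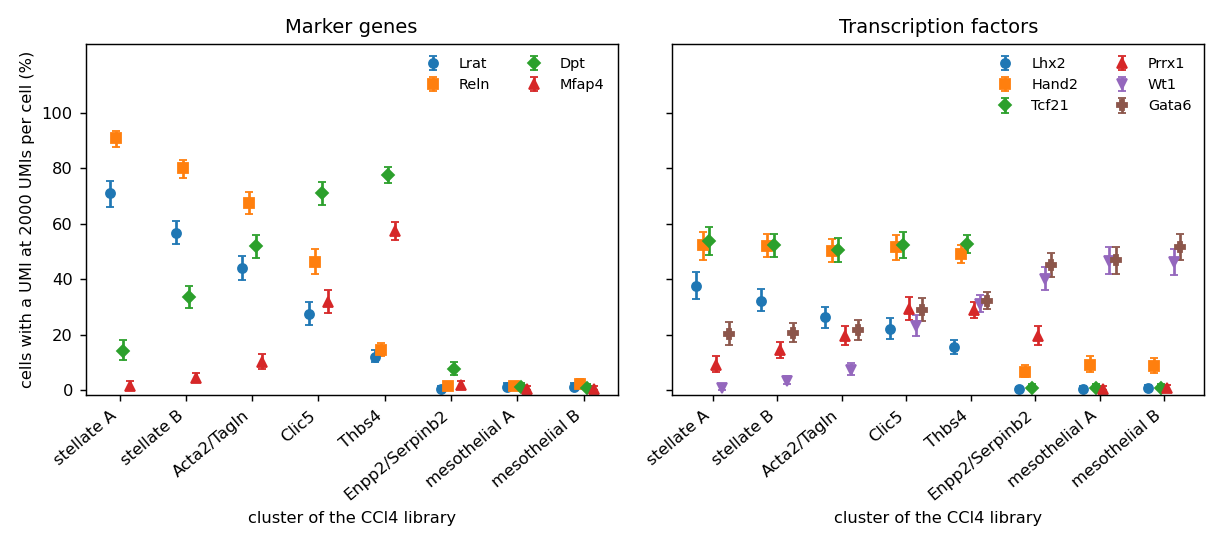
Share of CCl4 cells (%) with at least 1 UMI after thinning to 2000 UMIs in 8 clusters, for 4 marker genes (left) and 6 transcription factors (right), with exact binomial 95% intervals for counting error. Hand2 and Tcf21 lie between 49.1% and 53.9% in the first 5 clusters, while Lhx2 goes from 37.6% to 15.4% and Wt1 from 0.666% to 31.04%.

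Smaller stellate-like clusters stood apart. One cluster of 87 cells with 1.76 times the median UMIs of its library held the endothelial markers Cdh5 in 46.7% and Pecam1 in 38.4% of cells, together with Lrat in 54.2%. Its Gata4 share of 23.3% and Nr2f2 share of 70.8% lay nearer those of endothelial-like cells, and its Tcf21 share was 27.7%. Leaving it out changed no stellate-like share of Lhx2, Hand2, Tcf21 or Foxf1 beyond the counting interval. Another cluster of 361 cells with 0.198 times the library's median UMIs had Wt1 in 11.5% and Tcf21 in 31.02%, and without it the stellate-like Tcf21 share was 50.9%. Mesothelial-like CCl4 cells fell into cluster A (415 cells) and B (464 cells), in which Wt1 was found in 46.7% and 46.1% and Gata6 in 46.8% and 51.7%.

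Endothelial clusters of the healthy library differed mainly in the Gata factors. The cluster led by Ccl21a, Vwf and Gja5, genes of larger vessels, had Gata4 in 21.0% and Gata6 in 6.84% of its 244 cells. The other 5 healthy endothelial clusters had Gata4 in 26.3% to 34.7% and Gata6 in 0.135% to 1.06%. Nr2f2 varied little, between 73.2% and 77.6% over all 6.

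Injury could be compared in 2 classes. In mesothelial-like cells, which came almost wholly from different clusters in the 2 libraries (228 of 231 healthy cells from one, all CCl4 cells from the others), Gata6 was at 196 CPM in the healthy and 358 CPM in the CCl4 library (ratio 1.83, 1.69 to 1.98). Nr2f2 was lower in CCl4 at 157 and 86.5 CPM (ratio 0.552, 0.501 to 0.608), as were Foxf1 at 65.9 and 34.4 CPM (0.522, 0.449 to 0.608) and Hand2 at 76.3 and 49.8 CPM (0.653, 0.570 to 0.749). Wt1 was at 297 and 322 CPM (1.08, 1.02 to 1.16) and Gata4 at 35.2 and 41.4 CPM (1.18, 0.978 to 1.43). The Hand2 ratio was 0.861 with doublets kept. None of these 6 passed 2-fold, and the 3 genes that did, Lhx2 (49 against 4 UMIs), Tcf21 (71 against 1) and Prrx1 (44 against 0), were at the immune-like background in the CCl4 library, so 3 of 9 stands beside 23.9% of all genes. The summed level of the 15 mesothelial markers was 34408 CPM in healthy and 17643 CPM in CCl4 cells, and its part in these ratios was not tested.

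In endothelial-like cells Gata4 was at 213 CPM in healthy and 183 CPM in CCl4 (ratio 0.857, 0.791 to 0.927), and Nr2f2 at 840 and 767 CPM (0.913, 0.878 to 0.948). Both ratios depended on the scaling: with TMM, which moved the median of all genes by 0.216 on the log2 scale, they were 0.995 and 1.06, so no direction is given. Gata6 was at 5.67 and 10.2 CPM (1.79, 1.22 to 2.58), but its CCl4 share of 1.65% was below the immune-like 2.03%. Hand2 (8.68 against 0.846 CPM) and Tcf21 (6.20 against 0.547 CPM) were the 2 of 5 genes with enough UMIs that passed 2-fold, beside 23.1% of all genes, and both CCl4 shares were at or under those of immune-like cells. Of the 553 CCl4 cells 547 came from a cluster with 20 healthy cells, so different clusters held the class in the 2 libraries.

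**Figure D4:**
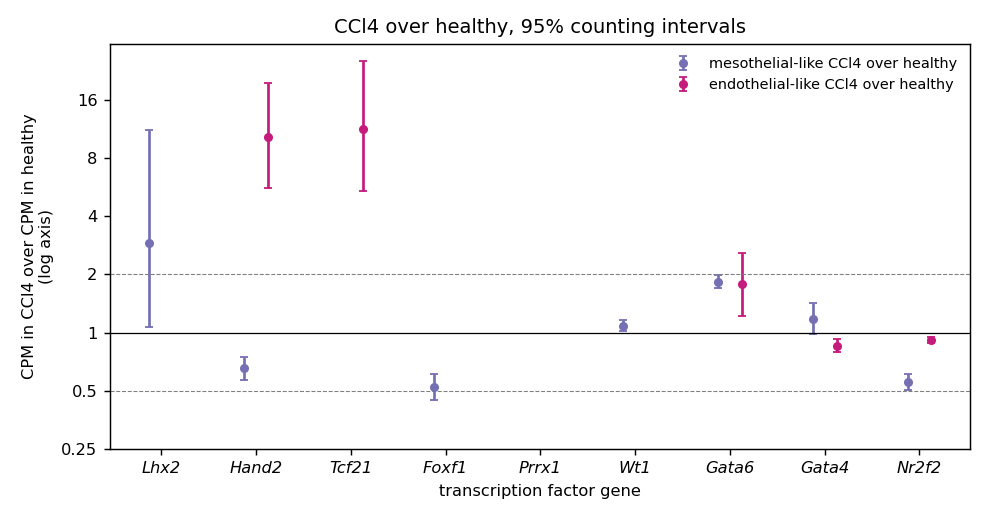
Ratio of CPM in the CCl4 over the healthy library (log axis) for mesothelial-like (purple) and endothelial-like (pink) cells, with exact 95% counting intervals, a line at 1 and dashed lines at 2-fold. Genes with under 30 UMIs in both libraries together or at most 3 healthy UMIs are not drawn. In mesothelial-like cells Gata6 lies at 1.83 and Nr2f2, Foxf1 and Hand2 lie below 1.

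Within a class, the share of cells with both factors of a frequent pair lay close to the product of their separate shares. In stellate-like cells 24.6% (22.3 to 27.1%) had both Hand2 and Tcf21 at fixed depth, where the product of the separate shares was 23.6%, and 15.9% had both Lhx2 and Tcf21 (product 15.0%). Wt1 and Gata6 were found together in 23.3% of CCl4 mesothelial-like cells (product 22.9%) and 18.96% of Enpp2/Serpinb2 cells (product 18.1%). Gata4 and Nr2f2 were found together in 24.5% of healthy endothelial-like cells (product 24.3%). The product lay inside the counting interval for 216 of 216 pairs over the 6 classes by library. Many pairs were too rare for a narrow interval, so this count cannot show that the factors of a pair were independent. In stellate-like cells Gata6 and Wt1 were found together in 1.24% (0.709 to 2.02%), above the product of 0.791%. Hand2 and Wt1 were found together in 1.64% (1.02 to 2.51%) of these cells, below the product of 1.85%. Whether thinning hid an association was not tested.

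**Figure D5:**
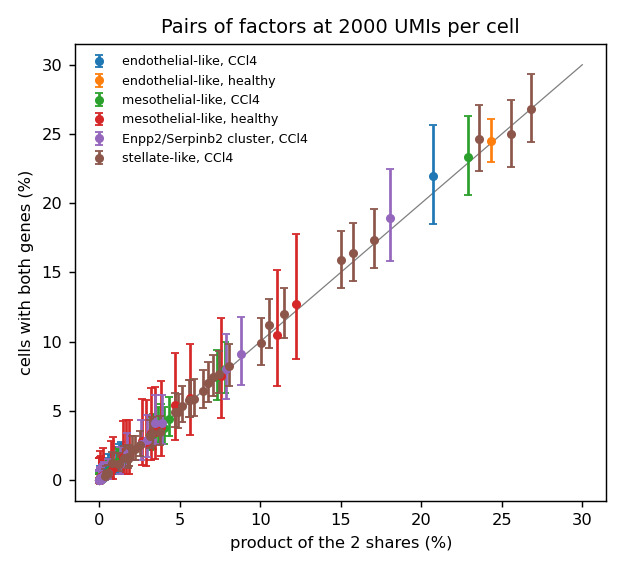
Share of cells (%) with UMIs of both genes of a pair after thinning to 2000 UMIs (y axis, exact binomial 95% intervals) against the product of the separate shares (x axis), by class and library. Points follow the line of equality, as for Hand2 and Tcf21 in stellate-like cells at 24.6% against 23.6%.

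Across the 22 populations of at least 50 cells (class or cluster by library), log2(CPM + 1) of Lhx2 and Tcf21 had a Pearson correlation of 0.95, Hand2 and Foxf1 of 0.92, Hand2 and Tcf21 of 0.87, Gata4 and Nr2f2 of 0.74 and Gata6 and Wt1 of 0.69, while Gata4 and Gata6 had 0.07. Wt1 had higher correlations with Hand2 (0.77) and Foxf1 (0.75) than with Gata6, and Tcf21 and Prrx1 had 0.86. The pairs thus did not fall into separate groups. These populations share libraries, so the values are descriptions. Among 11476 genes, the one most like Lhx2 was Ccdc3 (0.963), which was also most like Tcf21 (0.987, then Sparcl1 and Ms4a4d). Tbx20, a T-box factor of heart development, was most like Hand2 (0.975, then Cygb and Adamts2), and Mustn1 most like Foxf1 (0.962). Ptgis, the prostacyclin synthase gene, was most like Wt1 (0.942), Cryab most like Gata6 (0.935), Ptges3l most like Prrx1 (0.928), Amotl1 most like Nr2f2 (0.939) and Atrnl1 most like Gata4 (0.880).

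Of 17 listed partners and relatives of the factors, 13 had enough UMIs between stellate-like and Enpp2/Serpinb2 cells and 7 of them differed by over 2-fold, 4 higher and 3 lower, beside 30.5% of all genes. The most abundant was Tcf4, an E protein with which such helix-loop-helix factors pair, at 455 CPM in stellate-like, 60.4 CPM in Enpp2/Serpinb2 and 35.8 CPM in CCl4 mesothelial-like cells. The E protein gene Tcf12 was at 64.6, 50.9 and 51.5 CPM in the same classes, Nr2f6 at 58.0, 51.4 and 44.2 CPM, and Wtap, named for binding the Wt1 protein, at 40.6, 36.4 and 48.8 CPM. Tcf4, like Hand2 and Tcf21, was highest in stellate-like cells of these 3 classes, and the other 3 genes stayed within 2-fold. Wt1os, the transcript antisense to Wt1, was at 18.5 CPM in Enpp2/Serpinb2, 16.1 CPM in CCl4 mesothelial-like and 0.368 CPM in stellate-like cells, and whether counting told it apart from Wt1 by strand is not given in the sources used here. Dnm3os was at 24.2 CPM in stellate-like and 1.13 CPM in Enpp2/Serpinb2 cells.

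Of 27 other mesenchymal transcription factors, 22 had enough UMIs in that comparison and 20 differed by over 2-fold, 14 higher and 6 lower in stellate-like cells, beside the same 30.5% of all genes. Zeb2, a repressor of epithelial genes, was at 761 CPM in stellate-like, 250 CPM in Enpp2/Serpinb2 and 22.95 CPM in CCl4 mesothelial-like cells, and Mef2c at 107, 27.0 and 61.7 CPM. Klf4 was higher in the Enpp2/Serpinb2 cells at 576 CPM against 83.6 CPM in stellate-like cells, and Sox9 was at 8.83 and 1.23 CPM. Of 13 endothelial transcription factors, 12 had enough UMIs between stellate-like and CCl4 endothelial-like cells and all 12 were over 2-fold lower in the former, where 38.5% of all genes passed 2-fold in either direction. Among them were Maf (208 against 2115 CPM), Klf2 (228 against 916 CPM), Meis2 (46.5 against 394 CPM) and Hhex (3.62 against 73.9 CPM). The median log2 ratio of these 12 was -3.55, beside -0.08 over all genes.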

How the data were processed

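The authors deposited UMI counts for each library as 1 matrix of genes by cells without normalization, written per the file headers by Cell Ranger 3.1.0 (healthy) and 6.0.1 (CCl4). Both files hold called cells only, with a lowest total of 500 UMIs. The build used for these matrices is not settled by the sources used here, so no coordinates came from them.

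Genes were matched by Ensembl identifier (30406 shared). Of the 51122846 healthy and 97611831 CCl4 UMIs, 99.9% and 99.6% fell on these genes. A cell was kept from 500 UMIs and 200 genes upward if no more than 30% of its UMIs were mitochondrial, and the highest Scrublet doublet scores were removed at 0.8% per 1000 cells (277 healthy and 487 CCl4 cells). Counts were scaled to 10000 per cell, log-transformed and clustered together on 2000 variable genes, 10 principal components and 20 neighbours with Leiden resolution 2 (scanpy 1.11.5, seed 1). All listed transcription factors were kept out of the clustering. A class name needed at least 3 markers with at least 2-fold CPM and 10% of cells, 2 markers more than any other class, and no leading genes of another class among the top 10. The margin of 2 markers and the separate cycling class were set after the clusters were seen, 2 clusters were cycling and 9 stayed unnamed. Rebuilt names can differ from those of the study.

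Shares are expected values over all thinnings to 2000 UMIs with Clopper-Pearson intervals, CPM has exact Poisson intervals and ratios have exact conditional binomial intervals, all for counting error only (scipy 1.17.1). A ratio past 2-fold was counted over genes with at least 30 UMIs. Formulas were tested on simulated data. The 9 genes, the lists and the markers were chosen with earlier results of these data known. Named were the 9 genes in every class of at least 50 cells, the 3 genes most correlated with each among genes of at least 20 CPM (3 are given for Tcf21 and Hand2 and the first for the others), and the 4 genes with the most UMIs of each other list. Of the 8 listed antisense or divergent RNAs, Dnm3os and Wt1os were on both gene lists. Alternatives were TMM scaling (edgeR 4.0.16), cell weights, filters, clustering settings and thinning depths. Promoters came from a RefSeq table.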

Additional observations from a re-analysis of the deposited data

Results flagged for a closer look

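Hand2 had opposite ratios of CCl4 over healthy CPM in 2 classes, 0.653 in mesothelial-like cells (803 against 293 UMIs) and 10.3 in endothelial-like cells (35 against 17 UMIs), with counting intervals that did not include 1 in either. The difference between the classes was not tested, since each library is 1 sample. At fixed depth the endothelial-like CCl4 share was 1.88% and that of immune-like cells 2.42%, so the endothelial-like value was not above the immune-like background. Whether free RNA gave these UMIs was not tested.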

How the results depend on the processing

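Shares move with depth by construction. Thinned to 1000 UMIs per cell, the shares were 17.8% for Lhx2, 30.1% for Hand2, 28.2% for Tcf21 and 7.91% for Foxf1 in stellate-like cells, 23.6% for Wt1, 26.7% for Gata6 and 10.8% for Prrx1 in the Enpp2/Serpinb2 cluster, 27.4% for Wt1 and 29.5% for Gata6 in CCl4 mesothelial-like cells, and 17.5% for Gata4 and 53.4% for Nr2f2 in healthy endothelial-like cells. Thinned to 4000 UMIs they were, in the same order, 54.1%, 73.5%, 71.2% and 28.8%, then 60.4%, 67.8% and 34.3%, then 69.4% and 72.5%, then 53.0% and 91.9%. Without thinning they were 72.9%, 84.0%, 79.4% and 52.6%, then 93.3%, 94.5% and 74.6%, then 95.9% and 97.0%, then 55.2% and 89.0%.

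Other settings moved fewer values. The stellate-like Tcf21 share was 52.2% at a mitochondrial limit of 10%, 52.6% with 30 principal components and 50.98% at Leiden resolution 1, where Lhx2 was 34.5%. With each library clustered on its own, the portal fibroblast-like shares in CCl4 were 34.6% for Wt1, 40.1% for Gata6 and 23.7% for Prrx1, and the stellate-like over portal fibroblast-like ratios were 8.57 for Lhx2, 3.58 for Hand2, 0.0716 for Wt1 and 0.433 for Gata6. In that setting 203 healthy cells also carried the portal fibroblast-like name. With doublets kept these ratios were 42.6 for Lhx2, 8.27 for Hand2 and 0.0754 for Wt1, and the mesothelial-like CCl4 over healthy ratios were 0.629 for Nr2f2 and 0.861 for Hand2. Wt1 had 0.0356 at resolution 1 and 0.0724 with 30 principal components. With every cell weighing the same, the mesothelial-like Gata6 ratio was 2.02 and the stellate-like over portal fibroblast-like ratios were 0.0837 for Wt1 and 0.390 for Gata6. The endothelial-like Gata4 ratio was 0.995 with TMM and 0.985 without the 50 most abundant genes, and that of Nr2f2 turned to 1.06 and 1.05. TMM moved the median of all genes by 0.216 (log2) in endothelial-like and 0.105 in mesothelial-like cells. Chosen after the data were seen, naming cycling clusters by markers gave 17.1 for Lhx2 and 7.18 for Hand2, and leaving out named clusters of low UMI counts gave 0.0424 for Wt1 and a stellate-like Tcf21 share of 50.9%. The remaining 102 share and 75 ratio values stayed within the counting interval or, for counts of genes, within 1.5 times. Some of them could not move, because a setting did not touch the class. Leaving out the stellate-like cluster with endothelial markers, for example, repeats the main shares of the other classes.

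No paired analysis was possible because each group has 1 library, and for the same reason no replicate was left out. Shares at or below the immune-like share of the same gene, which lay between 0.675% (Foxf1) and 3.75% (Nr2f2), are at the background level used for the CCl4 library. Healthy stellate-like and portal fibroblast-like cells were too few to describe.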

Other observations

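Cycling cells, which were kept apart from the named classes, split into 2 clusters of unlike factor profiles. In the one with Msln in 11.5% of cells, Wt1 was found in 27.7%, Gata6 in 37.2%, Hand2 in 20.2% and Tcf21 in 14.1% at fixed depth. In the other, with Msln in 0.128%, Hand2 was found in 42.8%, Tcf21 in 35.0%, Lhx2 in 21.8%, Nr2f2 in 49.7% and Wt1 in 14.8%. Mki67, a proliferation gene, was found in 56.3% and 35.2% of these cells. The first had Lrat in 11.4% and the second in 20.6%. The first thus held factors of the stellate-like class together with Wt1 and Gata6. These 2 were frequent in mesothelial-like and Enpp2/Serpinb2 cells alike, so they do not tell those classes apart. Of the marker lists, portal fibroblast had the most hits in the first cluster, 3 of 16 markers. Wt1 in the second is no sign of mesothelium by itself, since the Thbs4 cluster also had Wt1 with Msln near 0. The part of mixed clusters was not tested.

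Among the other transcription factors listed, Maf was at 29.7 CPM in healthy and 826 CPM in CCl4 mesothelial-like cells (ratio 27.8, 23.1 to 33.8), and at fixed depth it was found in 5.93% and 72.3% of them. In endothelial-like cells Maf was at 1855 and 2115 CPM. Zeb2 was counted with 1 UMI in the healthy and 370 UMIs in the CCl4 mesothelial-like cells (ratio 88.1, 15.7 to 3490). Its level in CCl4 mesothelial-like cells was far below that in stellate-like cells, and the part of free RNA or doublets in it was not tested. Of all genes with enough UMIs, 23.9% passed 2-fold between the mesothelial-like cells of the 2 libraries. Klf4 was lower in CCl4 mesothelial-like cells at 182 against 454 CPM, and Klf2 at 267 against 672 CPM. Wt1os was at 4.43 CPM in healthy and 16.1 CPM in CCl4 mesothelial-like cells (ratio 3.64, 2.23 to 6.35), while Wt1 itself had a ratio of 1.08.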
